A study of Homo sapiens with 14 samples.

Results

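Phospholipase A2 enzymes cut the fatty acid from the middle (sn-2) position of a membrane phospholipid and leave a free fatty acid and a lysophospholipid. When the freed acid is arachidonic acid, cyclooxygenases and lipoxygenases can turn it into prostaglandins and leukotrienes. The family falls into cytosolic enzymes, most of them calcium-dependent (PLA2G4A to PLA2G4D), calcium-independent enzymes of the patatin type (PLA2G6, PNPLA8, PNPLA2), secreted enzymes (here PLA2G12A), a lysosomal enzyme (PLA2G15) and the thiol-type hydrolase PLAAT3. The 10 genes described here were taken from a fixed list of symbols, each matched to 1 Ensembl gene among the 61541 in the count table. The rule has no threshold on a measured value, but the list was drawn up with earlier results of these data known. All 10 passed the filter on low counts, as did 19181 genes in all. The list thus holds relatives with enough reads to test, but not all of them. Of 35 further genes for enzymes that hydrolyse phospholipids, 17 were tested too, PLA2G2D among them. PLA2G4B, PLA2G4C and PLA2G4D reached the filter's cutoff in every library labelled shHDAC5 but not in every one labelled shControl. Counts over the members are therefore a description.

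The RNA came from BxPC-3, a human pancreatic cancer cell line, at day 3 after a short hairpin RNA, with 3 libraries given the genotype HDAC5 knockdown and the treatment shHDAC5 and 3 libraries given the genotype WT and the treatment shControl. GATA1, which switches on genes of red blood cells and binds sites with the core GATA, was immunoprecipitated from PANC-1, a second pancreatic cancer line, at day 3 with shHDAC5 or shControl, with 2 immunoprecipitations and 2 inputs per condition and 1 peak list each. The series title links HDAC5 loss to arachidonic acid metabolism through GATA1 and cPLA2, the product of PLA2G4A. No label says how many cultures or hairpin clones stand behind the libraries, so the p-values reflect how far these libraries scatter, which may be technical scatter.

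The labels need caution on both sides. HDAC5, the target of the hairpin, had 2737, 2816 and 3026 counts in the libraries labelled shHDAC5, against 1482, 1313 and 1618 counts in those labelled shControl. All 3 libraries labelled as the knockdown were thus the higher ones (log2 fold change 0.79 ± 0.0358 SE, adjusted p = 3.95e-40, Benjamini-Hochberg adjustment of edgeR's quasi-likelihood test), and every direction below is between libraries as labelled. Libraries held 15179758 to 17854340 counts. Of the 6 epithelial markers, KRT8 stood at 1010 and 717 CPM, counts scaled to the size of the library, KRT18 at 327 and 404 CPM and KRT7 at 25.3 and 371 CPM in the shHDAC5 and shControl groups, while KRT19, EPCAM and CDH1 were all under 2 CPM on average in either group. SMAD4 and CDKN2A, which BxPC-3 is known to lack, averaged 46.8 and 13.7 CPM in libraries labelled shHDAC5 and 49.6 and 149.5 CPM in those labelled shControl. Peak names also went against labels: peaks of the list labelled shHDAC5 are named GATA1-NC-IP, and those of the list labelled shControl GATA1-SAHA-IP.

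The summed transcript level of the 10 enzymes, per length of transcript, was 496.9, 498.3 and 497.8 TPM, the length-scaled level, in the libraries labelled shHDAC5, against 250.5, 247.1 and 256.3 TPM in those labelled shControl. The groups did not overlap, and the ratio of their means was 1.98. At an adjusted p under 0.05, 7 of the 10 members rose, where 44.8% of all tested genes rose, and 1 fell, where 39.9% of all tested genes fell. Together 8 of 10 were called, against 84.7% of all tested genes, so the share called is no result about these enzymes. The median log2 fold change was 1.31 over the members and 0.09 over all tested genes. Over the 7 members that reached the filter's cutoff in every library it was 1.06, with 5 risen and 1 fallen. At 2-fold or more 6 members rose and 0 fell, where 26.4% and 20.1% of tested genes did. Among those 6 are PLA2G4C and PLA2G4D, which reached the filter's cutoff through the libraries labelled shHDAC5. For 9 members the libraries of the groups did not overlap, and 84.8% of all tested genes showed the same. Of the 9, 8 lay above and 1 below in libraries labelled shHDAC5, where 45.0% and 39.8% of tested genes do. PLA2G4C and PLA2G4D are among those 8 as well. Fewer cells of a type and less RNA per cell cannot be told apart in such bulk libraries.

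**Figure D1:**
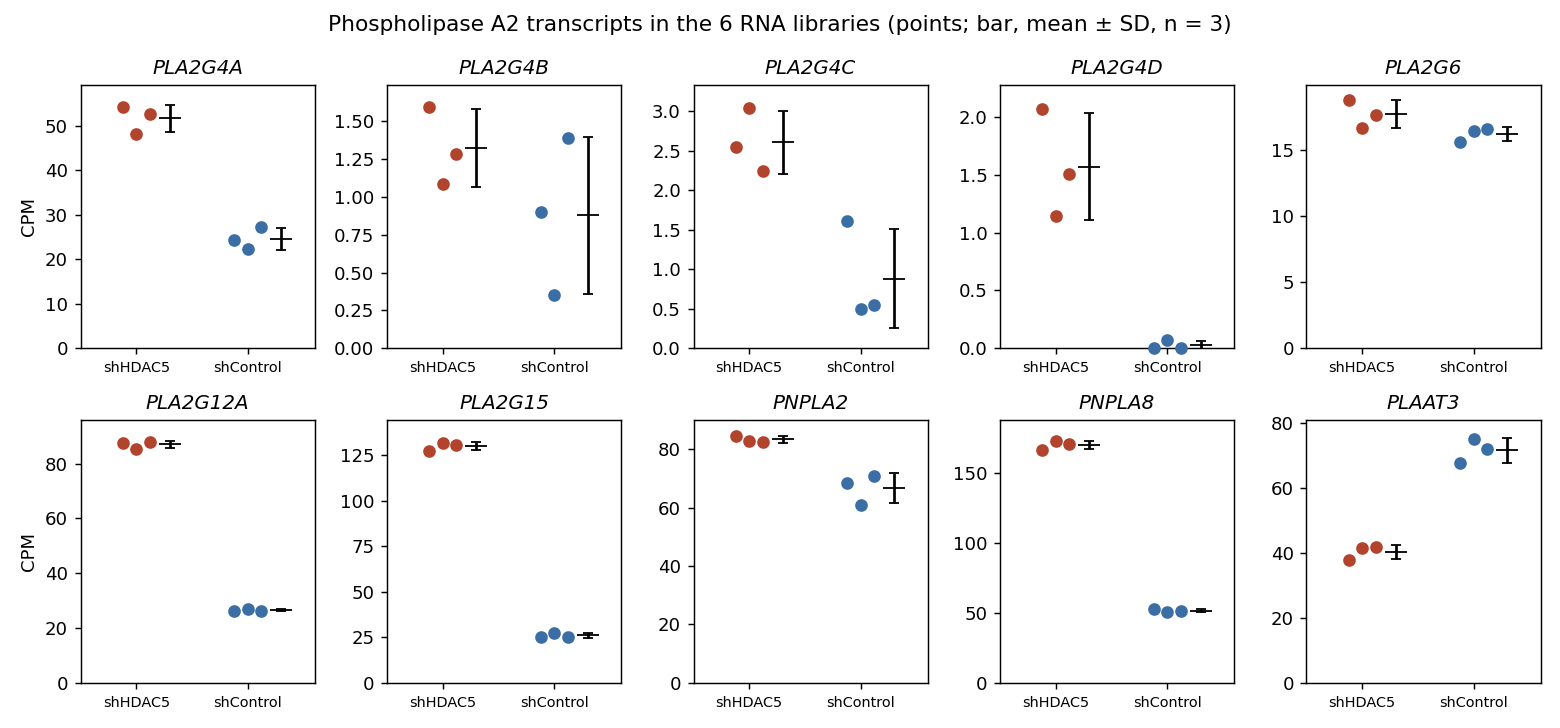
CPM of each phospholipase A2 gene in the 3 libraries labelled shHDAC5 (red) and the 3 labelled shControl (blue), with mean ± SD beside them and an axis from 0 in each panel. In 8 panels all red points lie above all blue ones, in the PLAAT3 panel they lie below, and in the PLA2G4B panel they overlap.

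PLA2G4A encodes cPLA2-alpha, the calcium-activated enzyme that favours phospholipids carrying arachidonic acid. It had 54.2, 48.3 and 52.6 CPM in libraries labelled shHDAC5, against 24.3, 22.3 and 27.2 CPM in those labelled shControl. Its 3 libraries labelled shHDAC5 were all above the other 3 (log2 fold change 1.06 ± 0.0632 SE, adjusted p = 7.01e-31, edgeR's quasi-likelihood test). The gene lies at chr1:186828949-186988981 (hg38), and its fitted 2.09-fold rise put it at percentile 74.8 of the fold changes of all tested genes. A test against a 2-fold change did not pass (adjusted p = 0.131, edgeR's glmTreat). The other cytosolic enzymes reached at most 3.03 CPM in any library.

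The promoter of PLA2G4A is shown because the study concerns GATA1 at this gene, those of PLA2G4D and PLA2G4B because they were the members' promoters that lay under a peak of either list, and that of PNPLA2 because peaks with a q of at most 0.05 lay within 1 kb of its start. Each line runs 5′ to 3′ from 250 bases before to 50 bases after the start, as RefSeq gives it for GRCh38.p14. Capitals mark every match to a searched word on either strand.
PLA2G4A: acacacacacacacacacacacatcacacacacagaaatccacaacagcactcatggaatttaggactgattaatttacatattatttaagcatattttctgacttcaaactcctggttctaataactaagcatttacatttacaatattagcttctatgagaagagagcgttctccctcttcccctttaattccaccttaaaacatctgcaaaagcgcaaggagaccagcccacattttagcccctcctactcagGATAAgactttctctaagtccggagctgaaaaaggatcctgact
PLA2G4D: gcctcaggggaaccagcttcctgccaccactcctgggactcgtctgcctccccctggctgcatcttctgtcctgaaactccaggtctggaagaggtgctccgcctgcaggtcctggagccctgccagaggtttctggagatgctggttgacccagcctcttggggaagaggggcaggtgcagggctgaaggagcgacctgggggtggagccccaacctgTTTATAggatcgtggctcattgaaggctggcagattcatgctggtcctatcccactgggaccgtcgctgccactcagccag
PLA2G4B: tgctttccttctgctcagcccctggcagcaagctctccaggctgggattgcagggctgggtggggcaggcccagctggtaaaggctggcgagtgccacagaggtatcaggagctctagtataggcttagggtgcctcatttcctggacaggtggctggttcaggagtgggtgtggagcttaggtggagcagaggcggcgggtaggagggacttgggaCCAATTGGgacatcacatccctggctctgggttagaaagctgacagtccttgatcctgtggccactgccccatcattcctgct
PNPLA2: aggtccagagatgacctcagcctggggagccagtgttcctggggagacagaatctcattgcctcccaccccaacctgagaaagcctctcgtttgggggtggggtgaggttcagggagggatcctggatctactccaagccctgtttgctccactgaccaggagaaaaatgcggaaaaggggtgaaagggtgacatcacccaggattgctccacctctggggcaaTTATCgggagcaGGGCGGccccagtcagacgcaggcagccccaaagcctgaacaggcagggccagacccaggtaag
These windows are chr1:186828699-186828998 on the plus strand for PLA2G4A, chr15:42094513-42094812 on the minus strand for PLA2G4D, chr15:41838597-41838896 on the plus strand for PLA2G4B and chr11:818664-818963 on the plus strand for PNPLA2. The words searched were the usual 6-base forms of the GATA site, namely AGATAA, its variant AGATAG, then TGATAA, and its variant TGATAG. The shorter word GATAA, which AGATAA and also TGATAA contain, was searched too. Further words were the E-box CACGTG, the AP-1 site TGANTCA, the CCAAT box, the GC box GGGCGG and the TATA box TATAAA.

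Of the 9 members with a promoter entry, none held any of the 4 forms of the 6-base GATA word, which 20.1% of 22078 promoters of coding genes hold. The shorter GATAA was found in PLA2G4A at position 7, and on the opposite strand in PNPLA2 at position -26, counted from the start as 1, while 18.7% of all promoters have it. CACGTG, present in 8.32% of promoters, occurred in PLA2G6 and PLA2G12A. GGGCGG, which 56.3% of promoters hold, was in those of PLA2G6, PLA2G12A, PLA2G15 and PNPLA2 and in the inner promoter of PNPLA8. The box CCAAT, held by 34.7% of promoters, was in those of PLA2G4B, PLA2G6, PLA2G15 and PLAAT3 and in the outer one of PNPLA8. TATAAA, held by 9.5%, was on the opposite strand in PLA2G4D, and TGANTCA, held by 6.16%, was in no member's promoter. The promoter of PLA2G4A was poor in CpG, with 3 CpG and an observed over expected ratio of 0.29, where the median of coding promoters was 0.74. Promoters of PLA2G4B, PLA2G4D and PNPLA2 were also poor, at 0.12, 0.21 and 0.19, whereas those of PLA2G6, PLA2G12A and PLA2G15 were at 0.79, 0.79 and 0.95. PNPLA8 has 2 entries, the outer at 0.31 and the inner at 0.99. These matches are a description of letters, not of bound sites.

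The other cytosolic enzymes were close to the detection limit. PLA2G4D encodes cPLA2-delta, first described in skin, and had 35, 20 and 27 counts in libraries labelled shHDAC5, against 0, 1 and 0 counts in those labelled shControl. With 1 count in all under the label shControl, its ratio was 72.8 with a 95% exact counting interval of 12.7 to 2911, which covers counting error only. The call was a rise (adjusted p = 4.21e-13, edgeR's quasi-likelihood test), and without shControl replicate 2, the library with that 1 count, the fitted log2 value moved to 7.73, against 5.76 with all libraries. PLA2G4C encodes cPLA2-gamma, a calcium-independent and lipid-anchored form, and had 43, 53 and 40 counts, against 25, 7 and 9 counts in libraries labelled shControl. Its groups did not overlap although shControl replicate 1 was well above the other libraries of its label. Its log2 fold change was 1.55 ± 0.3 SE (adjusted p = 1.74e-06, edgeR's quasi-likelihood test), and 2.30 without shControl replicate 1.

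PLA2G4B encodes cPLA2-beta and did not pass, with 27, 19 and 23 counts in libraries labelled shHDAC5 and 14, 5 and 23 counts in those labelled shControl. Its groups overlapped, and the log2 fold change was 0.55 ± 0.344 SE (adjusted p = 0.128, edgeR's quasi-likelihood test). The count of this gene is uncertain in itself. PLA2G4B lies wholly inside the readthrough gene JMJD7-PLA2G4B (chr15:41828092-41848143), and the treatment of reads in overlapping genes, not given in the sources used here, decides its count. The readthrough gene averaged 9.47 CPM in libraries labelled shHDAC5 and 7.06 CPM in those labelled shControl and was called as a rise (log2 fold change 0.43, adjusted p = 0.00136, edgeR's quasi-likelihood test). It thus drew more reads than PLA2G4B itself, which averaged 1.32 and 0.88 CPM in the shHDAC5 and shControl groups.

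Of the patatin-type enzymes, PNPLA8 had the highest fold. It encodes iPLA2-gamma, found on mitochondria and peroxisomes, and had 166.6, 172.6 and 170.2 CPM in libraries labelled shHDAC5, against 52.8, 50.6 and 51.2 CPM in those labelled shControl. That is a clear gap between groups whose own libraries lay close together, with a fitted fold of 3.29 (log2 fold change 1.72 ± 0.0396 SE, adjusted p = 4.43e-67, edgeR's quasi-likelihood test). The gene lies at chr7:108470417-108528178.

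PNPLA2 encodes adipose triglyceride lipase, which acts mainly on the triglycerides of lipid droplets. It had 84.7, 82.8 and 82.7 CPM in libraries labelled shHDAC5, against 68.5, 60.9 and 70.9 CPM in those labelled shControl. The groups were apart, but the fitted rise was only 1.25-fold (log2 fold change 0.32 ± 0.0449 SE, adjusted p = 3.34e-10, edgeR's quasi-likelihood test). PLA2G6 encodes iPLA2-beta, an enzyme of phospholipid remodelling, and had 18.8, 16.7 and 17.6 CPM in libraries labelled shHDAC5, against 15.6, 16.4 and 16.6 CPM in those labelled shControl. The lowest library labelled shHDAC5 was just above the highest labelled shControl, and the difference did not pass (log2 fold change 0.13 ± 0.0882 SE, adjusted p = 0.174, edgeR's quasi-likelihood test). It did pass with upper-quartile factors, total counts or a filter of at least 10 counts in every library, at 0.27, 0.31 and 0.23.

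PLA2G15, the lysosomal enzyme that works at acid pH, had the highest fold among the members with more than 100 counts per library. Its values were 127.4, 131.9 and 130.4 CPM in libraries labelled shHDAC5, against 25.3, 27.5 and 25.4 CPM in those labelled shControl. The groups were far apart, with a fitted fold of 4.997 (log2 fold change 2.32 ± 0.0484 SE, adjusted p = 2.78e-71, edgeR's quasi-likelihood test), and 86.8% of tested genes had the same or a lower fold change. PLA2G12A, a secreted enzyme with low catalytic activity, had 87.7, 85.5 and 87.9 CPM, against 26.3, 26.9 and 26.4 CPM in libraries labelled shControl. Its groups were as clearly apart (fitted fold 3.28, log2 fold change 1.71 ± 0.0525 SE, adjusted p = 1.91e-55, edgeR's quasi-likelihood test). These genes lie at chr16:68245373-68261058 and chr4:109709989-109730070.

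PLAAT3 was the 1 member that fell. It encodes a small enzyme with phospholipase A1 and A2 activity, abundant in fat tissue and also known as a host factor of picornaviruses. It had 37.9, 41.3 and 41.8 CPM in libraries labelled shHDAC5, against 67.5, 74.96 and 72.0 CPM in those labelled shControl. Every library labelled shHDAC5 lay below every one labelled shControl (log2 fold change -0.82 ± 0.0513 SE, adjusted p = 2.44e-29, edgeR's quasi-likelihood test). The fitted difference, 1.77-fold, did not pass a test against a 2-fold change (adjusted p = 1, edgeR's glmTreat).

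The order of the enzymes, compared per length, differed between the labels. In libraries labelled shHDAC5 the first ranks went to PNPLA8 and PLA2G15, with 113.1 ± 2.31 and 110.0 ± 2.23 TPM (SD, n = 3), which overlapped each other. PNPLA2, PLA2G4A, PLA2G12A and PLAAT3 followed at 82.3 ± 1.27, 67.8 ± 3.8, 63.0 ± 0.663 and 49.5 ± 2.53 TPM (SD, n = 3), each apart from the next. In libraries labelled shControl PLAAT3 came first with 81.6 ± 3.85 TPM (SD, n = 3), then PNPLA2 with 61.3 ± 4.76 TPM. PNPLA8 and PLA2G4A overlapped there at 31.9 ± 0.935 and 30.04 ± 2.88 TPM (SD, n = 3), ahead of PLA2G15 at 20.5 ± 0.967 and PLA2G12A at 17.9 ± 0.243 TPM. PLA2G6 ranked seventh under either label, at 8.20 ± 0.481 TPM with shHDAC5 and 6.99 ± 0.177 TPM with shControl (SD, n = 3), and PLA2G4B, PLA2G4C and PLA2G4D stayed under 2 TPM in every library.

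Expressed as shares of the summed TPM, PLAAT3 made up 9.95% ± 0.495 of the pool in libraries labelled shHDAC5 and 32.5% ± 1.87 in those labelled shControl (SD, n = 3 each). PLA2G15 made up 22.1% ± 0.416 and 8.17% ± 0.524 (SD, n = 3 each), and PNPLA8 22.7% ± 0.432 and 12.7% ± 0.448, in the same order of labels. PLA2G4A held 13.6% ± 0.781 with shHDAC5 and 11.9% ± 0.928 with shControl (SD, n = 3 each), and its shares overlapped between the groups. Such shares depend on one another, so no test was made of them.

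**Figure D2:**
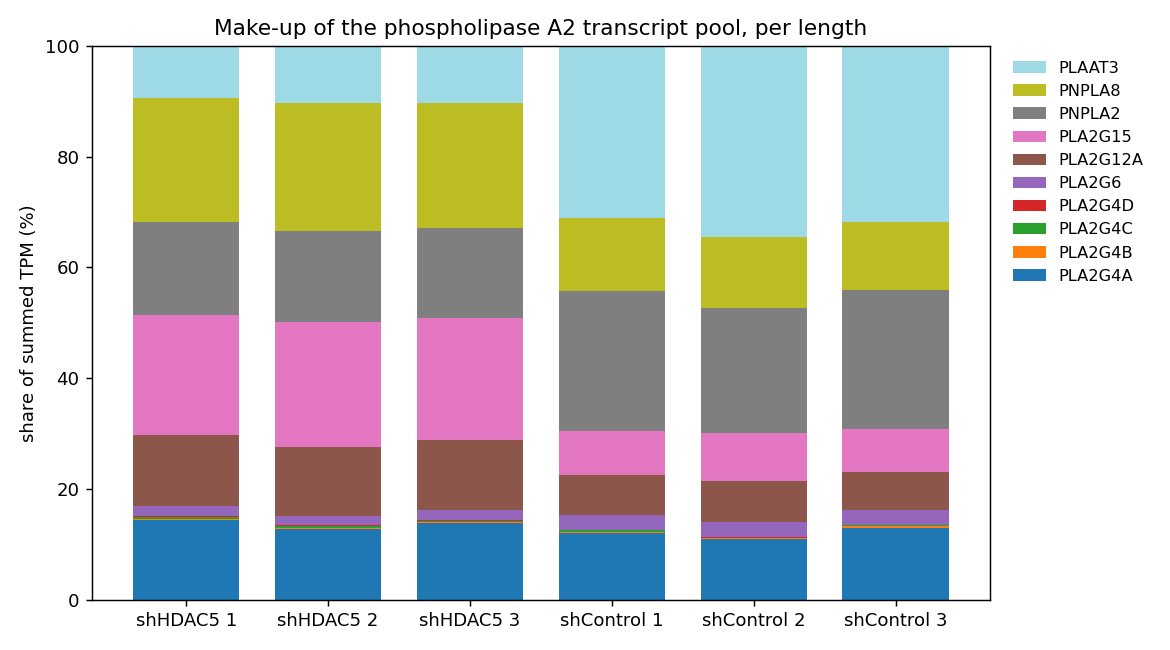
Share of each gene in the summed TPM of the 10 phospholipase A2 genes (percent, stacked to 100) in each library, with libraries labelled shHDAC5 at the left. PLAAT3 at the top takes 9.37% to 10.2% in libraries labelled shHDAC5 and 31.1% to 34.6% in those labelled shControl, while PLA2G4A at the base takes 12.8% to 14.3% and 11% to 12.9%.

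Genes beside the members moved in both directions, as genes did in general. Of 16 coding genes that overlap a member or lie within 10 kb, 13 were tested, 4 rose and 7 fell, where 44.8% and 39.9% of all tested genes did. JMJD7, which rose, reached the filter's cutoff in every library labelled shHDAC5 but not in every one labelled shControl. Of the other 12 tested, 3 rose and 7 fell. Next to PLA2G15, the amino acid transporter SLC7A6 averaged 21.8 CPM in libraries labelled shHDAC5 and 58.1 CPM in those labelled shControl, and the splicing factor ESRP2 35.8 and 60.9 CPM, so both fell where PLA2G15 rose. Next to PNPLA2, the calcium channel regulator CRACR2B fell to 2.73 CPM against 9.12 CPM, the tetraspanin CD151 to 101.2 CPM against 176.0 CPM and PIDD1 to 21.5 CPM against 29.9 CPM, while the ribosomal RPLP2 rose, with 346.0 and 323.9 CPM, although its groups overlapped and the call was lost without shControl replicate 1 (log2 fold change 0.04, adjusted p = 0.224, edgeR's quasi-likelihood test). ATL3, which shapes the endoplasmic reticulum and lies beside PLAAT3, fell with it, to 29.9 CPM with shHDAC5 against 125.4 CPM with shControl.

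At PLA2G4B the neighbours were higher. SPTBN5, a spectrin gene whose end is 3 bases from that of PLA2G4B, averaged 26.6 ± 1.07 CPM in libraries labelled shHDAC5 and 0.944 ± 0.129 CPM in those labelled shControl (SD, n = 3 each), and JMJD7 averaged 1.77 and 0.588 CPM. Both rose, but JMJD7 reached the filter's cutoff through the libraries labelled shHDAC5 and so had to be high there. LIG1, the DNA ligase gene beside PLA2G4C, fell to 26.0 CPM against 48.3 CPM with shControl. CASP6 beside PLA2G12A (log2 fold change 0.28) and BAIAP2L2 beside PLA2G6 did not pass, although CASP6 did under 5 alternatives, at 0.31 to 0.46, and CABP5, CFI and PLAAT2 had too few counts to test. With the strand setting of the counting not given in the sources used here, reads of abutting genes cannot be told apart with certainty.

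Of 35 further genes for enzymes that hydrolyse phospholipids 18 had too few counts to test. Among the 17 tested, 10 rose and 5 fell, where 44.8% and 39.9% of all tested genes did. The median log2 fold change of the 17 was 0.57. Among them PLA2G2D, PLB1 and PLAAT1 reached the filter's cutoff in every library labelled shHDAC5 but not in every one labelled shControl, so that they had to be high with shHDAC5, and the median of the other 14 was 0.02. PLA2G2D, a secreted enzyme of lymphoid tissue, had 85, 86 and 69 counts, 240 in all, in the libraries labelled shHDAC5 and 0 in each of those labelled shControl. Set against a floor of 3 counts over the shControl group, its ratio was 71.0. The exact 95% counting interval of the ratio, which also covers the error of the 240 counts, begins at 57.3. PLB1, phospholipase B1, averaged 6.48 ± 0.915 CPM in libraries labelled shHDAC5 and 0.22 ± 0.115 CPM in those labelled shControl, and PNPLA7, a lysophospholipase, 37.4 ± 2.47 and 18.9 ± 1.012 CPM (SD, n = 3 each). DDHD2, a brain triglyceride lipase and phospholipase A1, fell to 52.6 ± 1.74 CPM against 95.7 ± 3.28 CPM with shControl (SD, n = 3 each). The summed level of this list was 555.3 to 563.7 CPM in libraries labelled shHDAC5 and 554.2 to 567.3 CPM in those labelled shControl. PLA2G2C, PLA2G2E and PLAAT5 had no count in any library.

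Genes for kinases and binding partners of phospholipase A2 enzymes, most of them linked to cPLA2, moved both ways. Of 8 kinases and binding partners 4 rose and 4 fell, where 44.8% and 39.9% of all tested genes did. The median log2 value was -0.04, or -0.27 without PLA2R1, which reached the filter's cutoff through the libraries labelled shHDAC5. S100A10, which binds annexin A2 and also cPLA2, fell to 67.8 ± 1.12 CPM with shHDAC5 against 227.8 ± 6.43 CPM with shControl, and MAPK3, the kinase ERK1 that phosphorylates cPLA2, fell to 38.3 ± 1.89 CPM against 90.2 ± 0.521 CPM (SD, n = 3 each). MKNK1, a kinase downstream of ERK and p38, averaged 93.9 ± 4.35 CPM with shHDAC5 and 26.4 ± 1.63 CPM with shControl (SD, n = 3 each). ANXA1, annexin A1, long described as an inhibitor of phospholipase A2, averaged 437.0 ± 3.1 and 263.3 ± 2.73 CPM (SD, n = 3 each). Both rose.

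Lipid droplet genes, among which PNPLA2 works, held both rises and falls. Of 13 listed genes 9 were tested, 6 rose and 3 fell, where 44.8% and 39.9% of all tested genes did. The median log2 value was 0.18, or 0.13 without PLIN5, which reached the cutoff in the same way. The droplet coat proteins PLIN5 and PLIN4 averaged 35.9 ± 1.44 and 45.2 ± 2.79 CPM in libraries labelled shHDAC5, against 0.262 ± 0.181 and 2.77 ± 0.755 CPM in those labelled shControl (SD, n = 3 each), and both rose. Other coat proteins differed: PLIN2 fell to 7.65 CPM with shHDAC5 against 19.2 CPM with shControl. PLIN3 rose slightly, at 242.8 and 228.6 CPM in that order, and PLIN1 had too few counts to test. FAF2, an adaptor on droplets and the endoplasmic reticulum, rose to 149.1 CPM against 78.9 CPM with shControl. MGLL, which completes triglyceride breakdown by cutting monoglycerides, fell to 69.3 ± 1.79 CPM against 189.7 ± 3.1 CPM (SD, n = 3 each). Direct partners of PNPLA2, singled out for their role after values were seen, were its coactivator ABHD5 at 27.1 CPM with shHDAC5 and 24.0 CPM with shControl, its inhibitor HILPDA at 61.7 and 30.7 CPM, and its inhibitor G0S2, which had no count in any library.

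The list for putting fatty acids back onto lysophospholipids holds acyl-CoA synthetases as well as the enzymes that transfer the fatty acid. Of its 13 tested genes 7 rose and 5 fell (median log2 fold change 0.51), shares near the 44.8% and 39.9% of all tested genes. MBOAT2, an acyltransferase, rose to 115.9 ± 2.87 CPM with shHDAC5 against 31.7 ± 1.31 CPM with shControl, and the acyl-CoA synthetase ACSL1 to 37.7 ± 0.707 CPM against 10.2 ± 0.614 CPM (SD, n = 3 each). LPGAT1 fell to 26.8 ± 1.55 CPM against 74.8 ± 3.64 CPM, and TAFAZZIN, which remodels cardiolipin, to 18.0 ± 2.11 CPM against 56.2 ± 2.55 CPM (SD, n = 3 each). A further list covers the breakdown of lysophospholipids, the other product of phospholipase A2, and of their deacylated forms. Of its 9 genes 2 rose and 4 fell, against the same 44.8% and 39.9%. The other 3 missed the threshold, and the median log2 value of the 9 was -0.11. GPCPD1, LYPLA1 and LYPLA2 fell to 45.6, 69.8 and 36.7 CPM, against 86.7, 104.9 and 60.2 CPM with shControl, and GDE1 rose to 231.1 CPM against 144.7 CPM.

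Lysosomal lipid genes, the neighbours of PLA2G15 in function, moved in 1 direction. Of 12 listed genes 11 were tested and all 11 rose, where 44.8% of all tested genes rose, and the median log2 value was 1.10. GM2A, the activator of ganglioside breakdown, averaged 214.2 ± 6.16 CPM in libraries labelled shHDAC5 and 41.1 ± 3.16 CPM in those labelled shControl (SD, n = 3 each). SMPD1, the acid sphingomyelinase, averaged 93.8 ± 2.85 and 22.9 ± 1.96 CPM, the acid lipase LIPA 258.8 ± 2.65 and 104.5 ± 2.55 CPM, and the cholesterol exporter NPC1 219.4 ± 4.46 and 102.6 ± 1.7 CPM, in the same order (SD, n = 3 each). GALC had 12 counts with shHDAC5 and 0 with shControl and was not tested.

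Of 11 genes that oxygenate arachidonic acid 9 were tested, 6 rose, 2 fell and 1 missed the threshold. Over all tested genes 44.8% rose and 39.9% fell. The median log2 value of the 9 was 1.66. ALOX15, ALOX15B and CYP2J2, 3 of the 6 that rose, reached the filter's cutoff through the libraries labelled shHDAC5, and the median of the other 6 tested genes was 0.05. PLA2G2D and CYP2J2, with no count with shControl, lie above the medians of their lists at any lower bound, so those medians are the same with them set there. ALOX15B, a lipoxygenase, averaged 2.87 ± 0.155 CPM with shHDAC5 and 0.231 ± 0.14 CPM with shControl, and CYP2U1, a fatty acid hydroxylase, 11.5 ± 0.915 and 3.34 ± 0.177 CPM (SD, n = 3 each). ALOX5 rose and PTGS1 fell. The summed level of the list, of which PTGS1 made up 373.5 and 1047 CPM on average, was 423.9 to 438.0 CPM with shHDAC5 and 1048 to 1090 CPM with shControl. ALOX5AP, which hands arachidonic acid to ALOX5, had 0 counts with shHDAC5 and 2 counts with shControl.

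**Figure D3:**
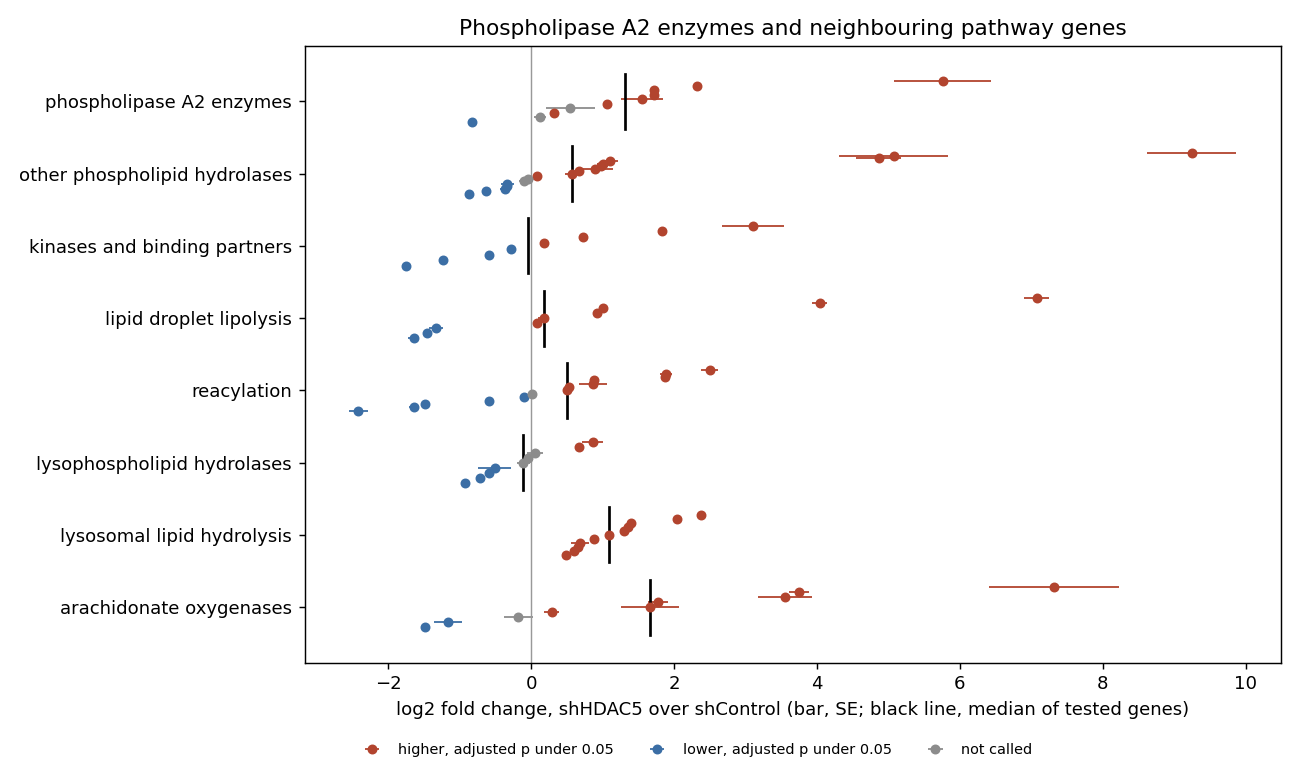
Log2 fold change of libraries labelled shHDAC5 over those labelled shControl for each tested gene (points, with SE bars) of the phospholipase A2 enzymes and 7 pathway lists, with black lines at the median of tested genes. All 11 lysosomal lipid genes lie to the right of 0, while the other lists lie on both sides of it.

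Markers of other cells differed between the labels, where 44.8% of all tested genes rose and 39.9% fell. Among the risen markers, HBB, HBA1, ITGAM, VWF and COL3A1 reached the filter's cutoff through the libraries labelled shHDAC5. Erythroid markers summed to 9.85 to 11.01 CPM in libraries labelled shHDAC5 and 1.048 to 1.22 CPM in those labelled shControl, with 3 genes tested and all 3 risen. HBB had 268 counts with shHDAC5 and 0 with shControl. Leukocyte markers summed to 6.43 to 8.16 CPM and 3.26 to 4.06 CPM, with 2 of 6 genes tested and 1 risen, and PTPRC, which defines leukocytes, had 5 counts with shHDAC5 and 1 with shControl. The risen one, ITGAM, a myeloid integrin, had 47, 52 and 46 counts with shHDAC5 and 0 in each library labelled shControl. Endothelial markers summed to 3.66 to 4.35 CPM and 1.21 to 1.74 CPM, with 2 of 5 genes tested and 1 risen. Fibroblast markers summed to 85.7 to 90.9 CPM and 120.8 to 130.6 CPM, with 4 of 6 genes tested, 1 risen and 3 fallen, and LUM without a count in any library. COL1A1 made up most of that sum, at 79.6 and 92.4 CPM, and PDGFRB averaged 6.59 and 29.6 CPM. Their part in the results on phospholipase A2 was not tested.

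GATA1 peaks were next counted in each gene and 10 kb on either side, 673 kb in all. The list labelled shHDAC5 had 87 peaks there, in 9 of the 10 windows, and the list labelled shControl 67 peaks, in 8 of the 10. Such a peak is common: 92.7% of 20037 coding genes have one in the list labelled shHDAC5 and 82.8% in the list labelled shControl. Peaks in both lists were found at 7 members, where 79.4% of coding genes have them. At PLA2G4A and PNPLA8 peaks came from the list labelled shHDAC5 with none in the other, which holds for 13.4% of coding genes, and at PLA2G4B the reverse held, as for 3.41%. No member lacked peaks in both lists, as 3.86% of coding genes do. With 1 list per condition, and with whole lists of 249139 and 121070 peaks, no difference between conditions could be tested.

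Nearly all of these peaks were weak. The authors' fold enrichment had a median of 2.25 in the list labelled shHDAC5 and 2.74 in the list labelled shControl, against 2.33 and 2.73 over each whole list. At an authors' q of at most 0.05, 1 member kept a peak in the list labelled shHDAC5, where 2.28% of coding genes do, and 2 members kept peaks in the list labelled shControl, where 17.8% do. In each list 6 peaks overlapped one of the other list, which is 6.90% of the 87 and 8.96% of the 67. The same share over the whole lists was not counted, so these values are a description.

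PLA2G4A, in the longest window at 180 kb, had 28 peaks in the list labelled shHDAC5 and 0 in the list labelled shControl. Of the 28, 26 lay in the gene, 1 upstream and 1 downstream. Per length this is 15.6 peaks per 100 kb, against 8.75 over all coding windows, and 11.8% of coding windows are as dense in that list. None was near the start. The nearest summit was 1209 bases inside the gene (chr1:186829720-186830781, fold enrichment 1.88), the nearest upstream one was at -3192 bases, and no peak touched the promoter printed above. The highest fold enrichment, 3.29, was at chr1:186840623-186840894 inside the gene, and no peak reached a q of 0.05.

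PNPLA2, in the shortest window at 26.7 kb, showed the opposite make-up, with 1 peak in the list labelled shHDAC5 and 19 in the list labelled shControl. Those 19 make 71.3 peaks per 100 kb, against 5.70 over all coding windows, a density reached by 0.314% of coding windows in that list. The single peak of the list labelled shHDAC5 had a fold of 3.49 at chr11:810157-810492 and overlapped 1 of the 19, a peak on RPLP2 with a fold of 4.401 at chr11:809852-810587. Of the 19, 7 had a q of at most 0.05, and 3 of the 7 overlapped PNPLA2 itself, at 233, 784 and 5411 bases after the start. Another 2 overlapped CRACR2B, 1 was the peak on RPLP2 and 1 lay between genes at chr11:813451-814132. The highest fold of the window, 4.85 at chr11:831957-832772, was 1 of those 2 on CRACR2B. It overlapped only the edge of that gene, which ends at 831991, and its summit at 832165 lay outside it.

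PLA2G4B had 0 peaks in the list labelled shHDAC5 and 16 in the list labelled shControl, 54.6 per 100 kb, which 1.66% of coding windows reach. The peaks were spread along JMJD7, PLA2G4B and SPTBN5. The peak at chr15:41838245-41838773, with a fold of 2.71, covered 177 bases of the PLA2G4B promoter printed above and ended before the start. PLA2G4D had 6 peaks in the list labelled shHDAC5 and 9 in the list labelled shControl, and its top peak in the list labelled shControl (fold 3.51, chr15:42094052-42094935) covered all 300 bases of its promoter. None of these peaks reached a q of 0.05.

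PLAAT3, the member that fell, held the strongest peak of any window. In the list labelled shHDAC5 a peak with a fold of 5.11 (q = 0.0012) lay at chr11:63573746-63575106, across the far end of the gene, 40035 bases from the start. That list had 13 peaks in the window and the list labelled shControl 7. One of the 13, with a fold of 2.56 at chr11:63606876-63607381, overlapped the highest of the 7, which had a fold of 4.04 (q = 0.0294) at chr11:63606664-63607190.

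Of the members with the clearest RNA rise, PLA2G15 had 4 peaks in the list labelled shHDAC5 and 3 in the list labelled shControl, none shared, at 11.2 and 8.41 per 100 kb, and the summit nearest its start was at -768 bases with a fold of 2.56 (list labelled shHDAC5). PNPLA8 had 6 and 0, at 7.72 peaks per 100 kb in the list labelled shHDAC5, and 1 of them lay between its outer and inner start, at -630 bases from the inner one. PLA2G12A had 7 and 1, at 17.5 and 2.49 per 100 kb, and 7.7% of coding windows are as dense in the list labelled shHDAC5. It had a summit 233 bases inside the gene in the list labelled shHDAC5, at a fold of 2.14. PLA2G6 had 14 and 11, and PLA2G4C 8 and 1, in the same order of lists. The binding data come from another cell line than the RNA, and no test joins them.

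Within 1 kb of a start, summits of the list labelled shHDAC5 were found at 3 of 9 members with a promoter entry, PLA2G12A, PLA2G15 and PNPLA8, where 25.6% of coding genes have one. In the list labelled shControl they were found at 3 other members, PLA2G4B, PLA2G4D and PNPLA2, where 49.7% of coding genes have one.

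**Figure D4:**
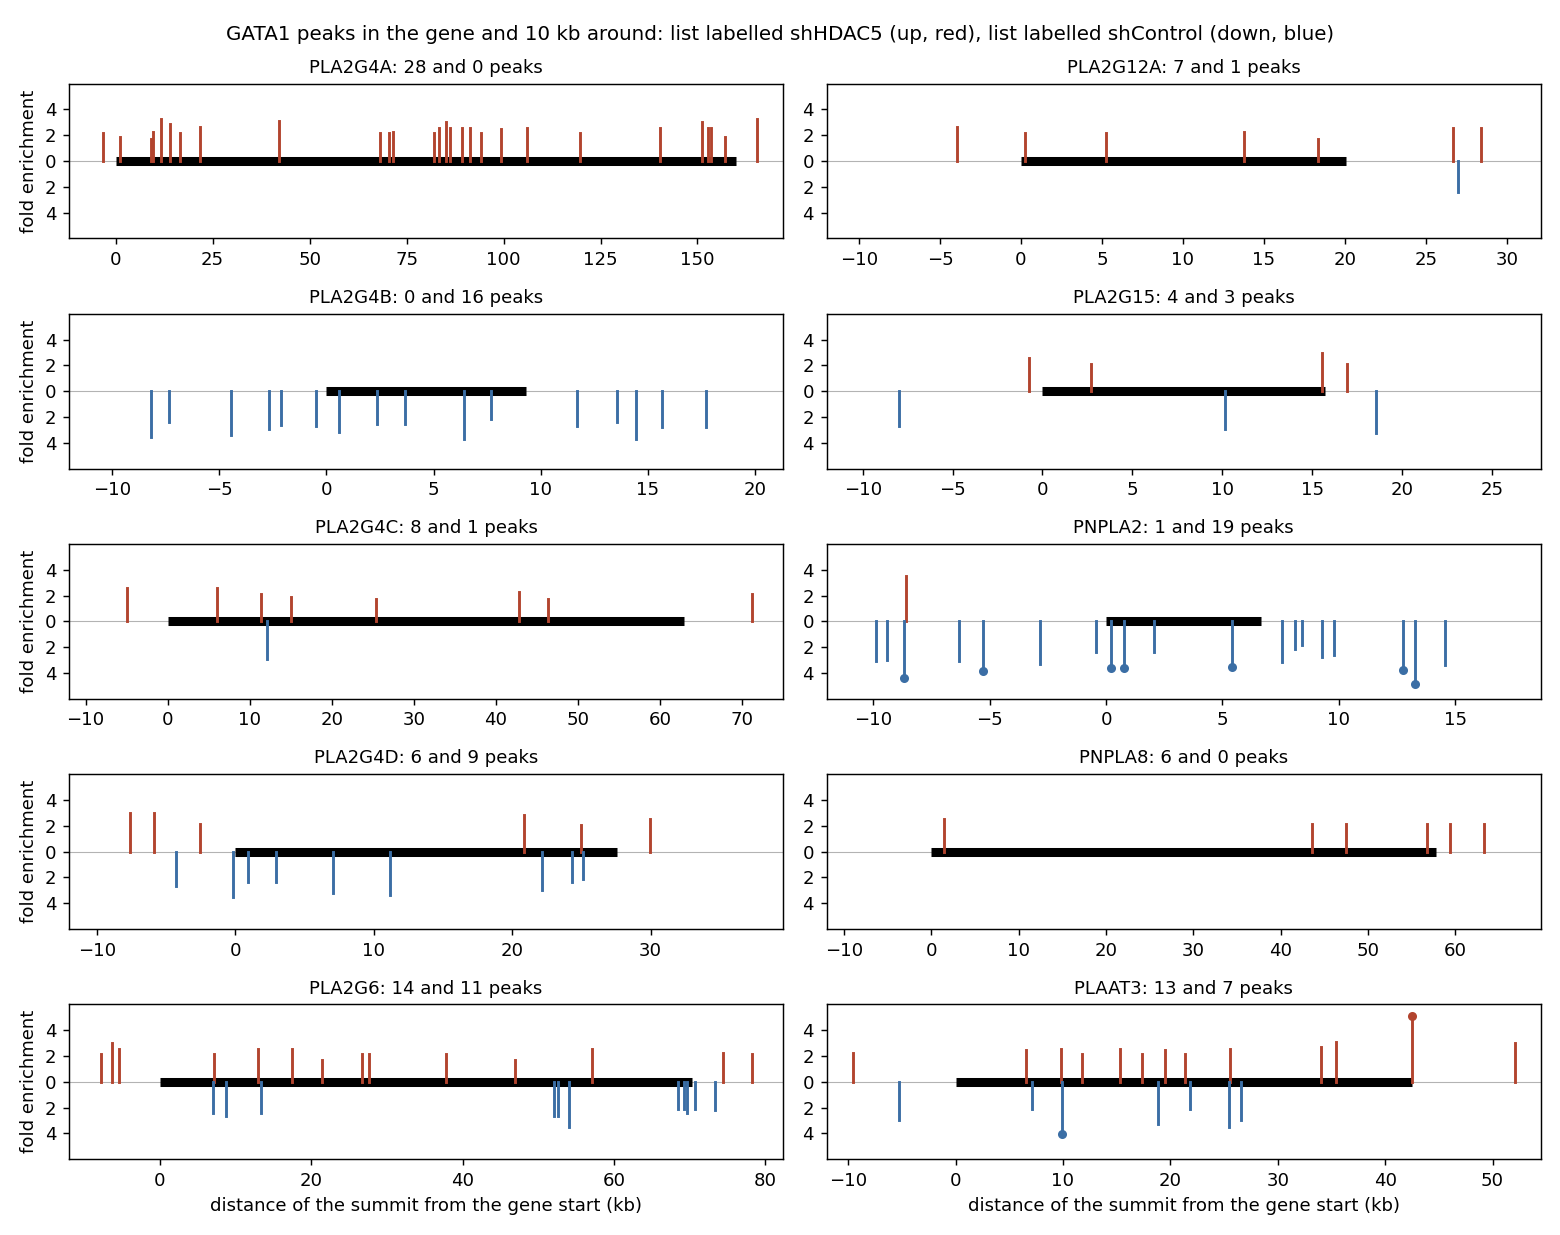
Summits of GATA1 peaks by distance from the gene start (kb) in each window, with the authors' fold enrichment drawn upward for the list labelled shHDAC5 (red) and downward for the list labelled shControl (blue), the gene as a black bar and a dot at peaks with a q of at most 0.05. The start drawn is the outer edge of the gene, which for PLAAT3 and for the inner start of PNPLA8 is not the promoter start used in the text. For PLA2G4C, which has no strand here, distance is from its lower-numbered end. All 28 peaks at PLA2G4A point upward and 19 of 20 at PNPLA2 downward.

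**Figure D5:**
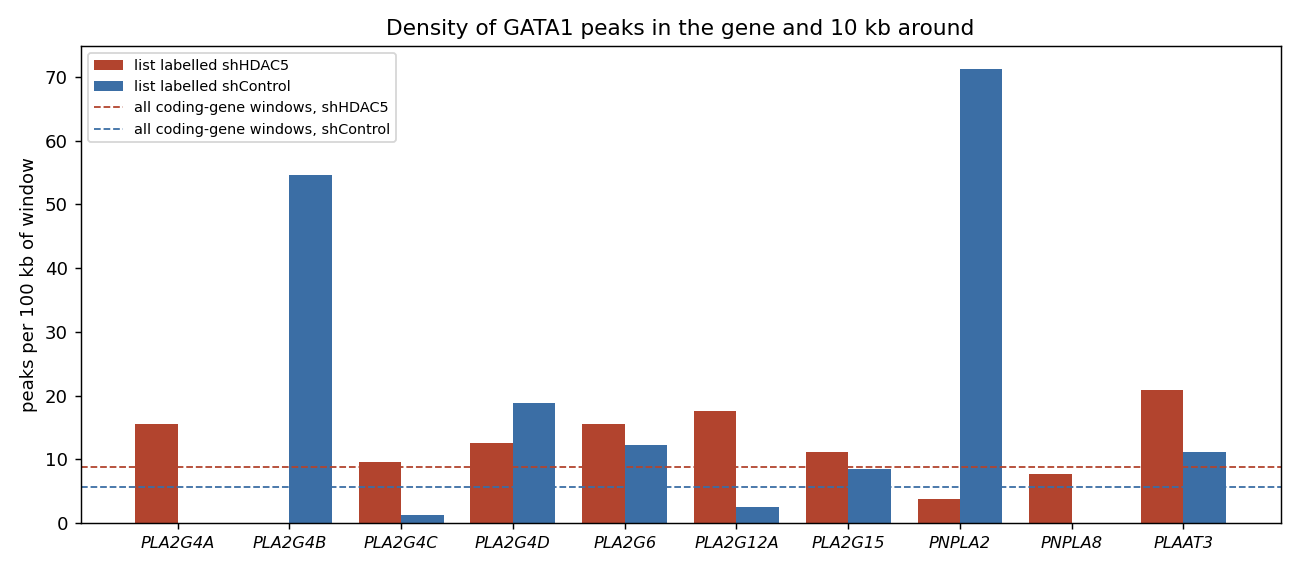
Peaks per 100 kb of each window in the list labelled shHDAC5 (red) and the list labelled shControl (blue), with dashed lines at 8.75 and 5.70 for all coding-gene windows. PNPLA2 and PLA2G4B stand at 71.3 and 54.6 in the list labelled shControl, and PLAAT3 has the highest bar, 20.8, in the list labelled shHDAC5.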

How the data were processed

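RNA from 6 libraries labelled BxPC-3 and GATA1 peak lists from PANC-1 were analysed. The RNA values are raw read counts, 1 row per Ensembl gene, as the authors deposited them. For every peak the deposited lists hold a fold enrichment (a ratio), a −log10 p and a −log10 q. The submitters' processing notes name hg38, MACS2 2.2.7.1, deepTools 3.5.0, fastp 0.23.2, FastQC 0.11.9 and featureCounts 2.0.1, without roles. Aligner, annotation release, strand setting and pooling of immunoprecipitations: not given in the sources used here.

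Genes passing edgeR's filter by group (19181 of 61541 gene IDs) were scaled by TMM and tested for group, with no covariate, by the quasi-likelihood test of edgeR, p adjusted by Benjamini-Hochberg over all of them (threshold 0.05). CPM use TMM-scaled library sizes, and TPM use the gene lengths in the count file. Standard errors are log2 fold changes divided by the root of F. The script was tested on simulated data. Tools were R 4.3.3, edgeR 4.0.16, DESeq2 1.42.0, Python 3.11.15 and pandas 2.3.3. Symbols matched 61369 gene IDs.

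Peaks on chromosomes 1 to 22, X and Y counted where they overlapped a gene or its 10 kb flanks by at least 1 bp. Gene ends and promoters came from RefSeq tables of GRCh38.p14. Named genes are the members, the targets of hairpin and antibody, 2 genes that BxPC-3 is known to lack, coding genes within 10 kb of a member, and up to 4 called genes per pathway list with the smallest adjusted p. Some further genes, among them the other droplet coat proteins, were named for their role after values were seen. The members and lists were chosen with earlier results of these data known. Alternatives were DESeq2, other scalings and filters, a test against a 2-fold change, a block for the replicate number, each library left out in turn, and other peak thresholds and windows. Input libraries were not analysed here. The value of 1 marker gene is not reported here.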

Additional observations from a re-analysis of the deposited data

How the results depend on the processing

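Each of the 8 members called kept its direction and its call under DESeq2, the other scalings, the filters under which it was tested, the replicate block and each left-out library, and PLA2G4A, PNPLA2 and PLAAT3 lost it against a 2-fold change. Replicate numbers did not pair the libraries (correlations of deviations -0.0126, 0.00258 and 0.00593 for the same numbers). With the replicate block 7 members rose and 1 fell, as without it. Leaving out each library gave 7 to 8 risen members and 1 fallen. Upper-quartile factors and total counts moved the median of all genes by 0.14 and 0.184 (log2) and gave 8 and 9 risen members, PLA2G6 with either and PLA2G4B with total counts. Total counts also gave 4 risen lysophospholipid hydrolases. At least 10 counts in every library left 7 members, of which 6 rose, and 3 risen arachidonate oxygenases, since fewer genes were tested. The genes still tested under it shifted up by 0.107 in their median, while the median over tested genes was -0.004, against 0.091 with the filter by group. BAIAP2L2 and SMAD4, which did not pass, turned to 0.0345 and 0.0561 with upper-quartile factors, 0.0778 and 0.0994 with total counts and 0.0011 and 0.0226 with that filter.

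Against a 2-fold change, 4287 genes rose and 3226 fell, and 5 members rose and 0 fell. Those 5 include PLA2G4C and PLA2G4D, which reached the filter's cutoff through the libraries labelled shHDAC5. Risen and fallen genes numbered 3 and 0 among other phospholipid hydrolases, 2 and 2 among kinases and partners, 3 and 3 in reacylation and 0 and 0 among lysophospholipid hydrolases. Risen genes were 2 in lipid droplets and 6 in lysosomes, and 1 arachidonate oxygenase fell. At a q of at most 0.05 the list labelled shHDAC5 kept 1 peak in 1 window and the list labelled shControl 8 peaks in 2 windows. At a −log10 p of at least 3 they kept 15 and 27 peaks, and gene bodies alone held 34 peaks of the list labelled shControl. Fewer than 50 counts per library limit PLA2G4B and PLA2G4D, and PLA2G4C is limited too, with at most 53 counts in a library. CASP6, which missed the threshold, passed with RLE factors (0.31), upper-quartile factors (0.42), total counts (0.46), at least 10 counts in every library (0.39) and without shControl replicate 2 (0.43). PLA2G4B passed without shControl replicate 3 (log2 fold change 1.03).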
